A study of Mus musculus with 8 samples.

Results

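The 6 mouse genes Syt13, Rnf125, Eva1a, Vim, Fam53c and Fcgbp were examined for levels that differed between Ezh2 knockout (KO) and wild-type (WT) libraries in one direction in an earlier set of library codes and in the other direction in a later set. They were listed by name out of 25247 genes in the count table. They were chosen by the measured values themselves, for low p-values of this very difference (a genotype by run interaction), with T lineage genes left out. The interaction is therefore described without a test and supports nothing. All 6 passed the filter on low counts that left 16146 genes to test.

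The libraries were bulk RNA sequencing of Langerhans cells, the antigen-presenting cells of the epidermis, sorted from the ears of C57BL/6 mice. Animals labelled EZH2 -/- made the KO group and animals labelled wild type the WT group, with 4 libraries each, and no treatment was given in the labels. The labels did not name the cells in which the deletion acted or the animals behind each library, and p-values therefore reflect library-to-library spread that could be purely technical. The sort kept live CD45+ MHCII+ CD24+ EpCAM+ cells without Ly6G or CD103.

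Which library belongs to which genotype was open for 4 of the 8. RMN038 and RMN039 were KO, and RMN030 and RMN031 were WT, by both the sample titles and the sample descriptions (the undisputed libraries). RMN032 and RMN033 were KO by title and WT by description, and RMN036 and RMN037 were WT by title and KO by description (the disputed libraries). The codes 030 to 033 are called the earlier run and 036 to 039 the later run. This is a reading of the code numbers alone, since no sequencing date was given. By title, each run held 2 libraries of each genotype. By description, all KO libraries were later codes and all WT libraries earlier ones, so genotype and run could not be told apart. The interaction of the title codes is, term by term, the undisputed libraries minus the disputed ones. A positive interaction therefore means a higher level in the undisputed libraries under either set of labels, and under the descriptions it lies between libraries of one genotype and one run.

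Total counts per library ranged from 11051402 to 18966195. The Langerhans cell marker Cd207 (langerin) stood at 9706 to 11963 CPM, counts scaled to the library total, and Epcam at 558 to 672 CPM over the 8 libraries. Ezh2 transcript, which need not disappear when part of a gene is deleted, was at 10.5 to 15.2 CPM in title KO and 15.7 to 22.4 CPM in title WT libraries. By description it was at 10.5 to 19.0 CPM in KO and 14.9 to 22.4 CPM in WT libraries. Xist, made by the inactive X chromosome, was at 379 to 629 CPM in every library, and the Y-linked genes Ddx3y, Eif2s3y and Uty were at or below 0.181 CPM. RMN030 and RMN031 stood apart in T lineage transcripts: 29 T lineage markers summed to 502 and 504 CPM there and to between 65.8 and 92.8 CPM in the 6 other libraries. The marker Cd3e, a chain of the T cell receptor complex, was at 7.33 and 6.46 CPM in RMN030 and RMN031 and at no more than 1.09 CPM elsewhere.

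Ezh2 is the catalytic subunit of Polycomb repressive complex 2 (PRC2), which methylates histone H3 and keeps developmental genes silent. The complex tends to gather at promoters rich in CG dinucleotides. The 6 genes share no single pathway. Syt13 and Eva1a encode membrane proteins of vesicle traffic and autophagy, Rnf125 a ubiquitin ligase, Vim an intermediate filament, Fam53c a nuclear protein and Fcgbp a secreted mucus protein.

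The RefSeq table of promoters (build GRCm38.p6) held no entry for Syt13, and the promoters of Rnf125 and Fam53c were left out and not examined. Promoter sequences of 250 bases before to 50 bases after the start are shown for the other 3 members. All are on the plus strand, at chr6:82041378-82041677 for Eva1a, chr2:13574061-13574360 for Vim and chr7:28070986-28071285 for Fcgbp. Capitals mark each CG dinucleotide, the same on both strands.
Eva1a: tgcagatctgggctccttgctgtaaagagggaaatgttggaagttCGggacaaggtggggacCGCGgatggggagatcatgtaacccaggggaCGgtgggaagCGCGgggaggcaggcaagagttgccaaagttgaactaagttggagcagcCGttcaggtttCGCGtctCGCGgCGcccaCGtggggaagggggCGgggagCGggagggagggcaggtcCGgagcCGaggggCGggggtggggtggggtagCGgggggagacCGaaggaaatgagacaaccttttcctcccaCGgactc
Vim: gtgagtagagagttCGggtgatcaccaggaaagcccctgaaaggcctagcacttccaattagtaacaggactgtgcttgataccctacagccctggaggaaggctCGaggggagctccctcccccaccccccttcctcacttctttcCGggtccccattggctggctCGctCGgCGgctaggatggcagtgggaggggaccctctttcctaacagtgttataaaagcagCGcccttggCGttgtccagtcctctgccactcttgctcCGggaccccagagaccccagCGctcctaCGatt
Fcgbp: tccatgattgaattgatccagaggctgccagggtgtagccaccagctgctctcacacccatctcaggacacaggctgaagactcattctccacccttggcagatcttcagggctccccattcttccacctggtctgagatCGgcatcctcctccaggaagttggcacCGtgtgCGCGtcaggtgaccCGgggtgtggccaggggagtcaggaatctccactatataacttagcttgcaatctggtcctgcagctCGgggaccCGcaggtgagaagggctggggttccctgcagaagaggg

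The Eva1a promoter held 21 CG dinucleotides, and 24.8% of 32851 RefSeq promoters of this length held at least as many. The Vim promoter held 11, reached by 41.4% of promoters, and the Fcgbp promoter held 7, the median of all promoters, reached by 52.1%. The letters TATAAA, the core of the TATA box, were found on either strand in the Vim promoter alone of the 3, beginning 32 bases before the start. They were found in 13.6% of all promoters. The 3 promoters thus ranged from CG-rich to average. A match is a description of letters and not of a bound factor.

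**Figure D1:**
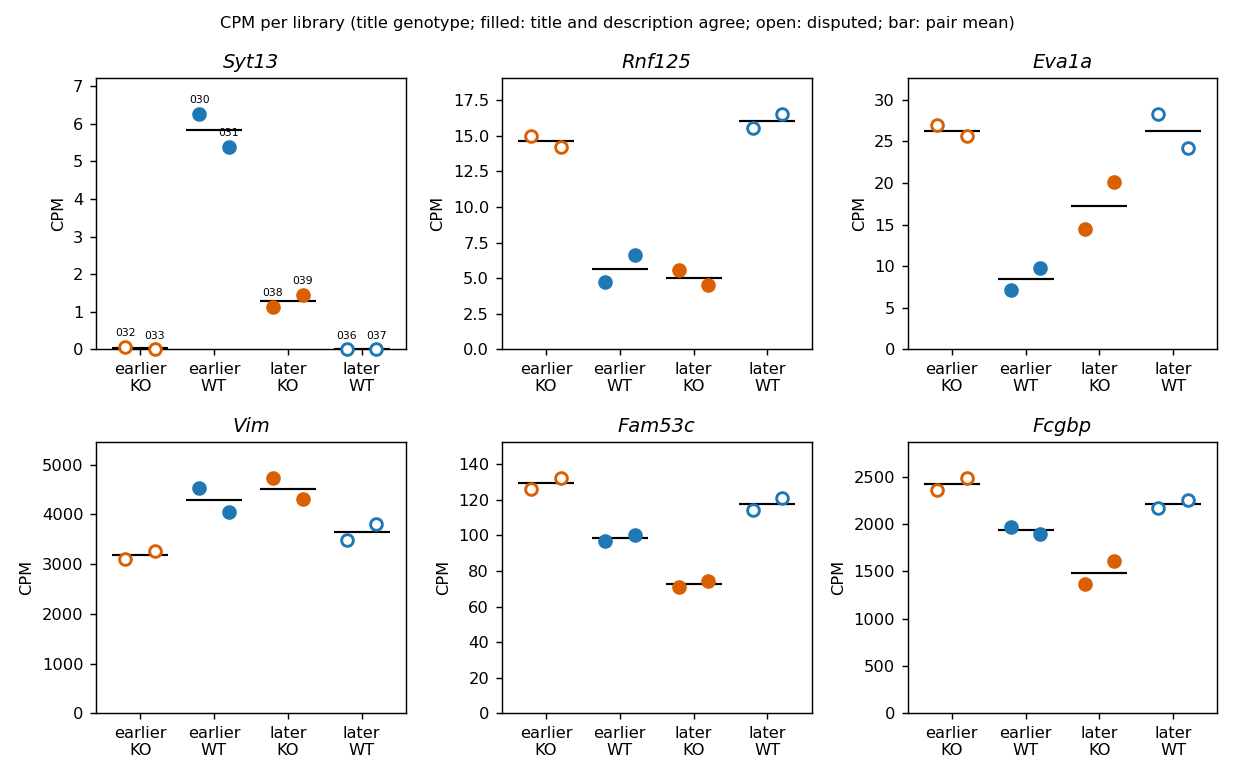
Scaled counts (CPM) of the 6 genes in each library, by title genotype and code run. Orange is title KO and blue title WT, filled points are libraries on which titles and descriptions agree, open points are disputed libraries, and bars are means of 2 libraries. In every panel the filled points lie on one side of the open points.

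Syt13 (ENSMUSG00000027220.2, GRCm38 chromosome 2, 92915098 to 92956058, plus strand) encodes a synaptotagmin, a membrane protein of vesicle traffic, of the atypical kind that does not bind calcium. In the earlier codes it had 1 and 0 counts in the title KO libraries RMN032 and RMN033, against 82 and 100 counts in the title WT libraries RMN030 and RMN031. In the later codes it had 16 counts in each of the title KO libraries RMN038 and RMN039, against 0 counts in both title WT libraries, RMN036 and RMN037. It was thus found almost only in the 4 undisputed libraries, and at a higher level in the WT than in the KO pair of them. These levels were 6.26 and 5.39 CPM in RMN030 and RMN031 and 1.14 and 1.45 CPM in RMN038 and RMN039. Pooled over the pairs, the earlier title KO libraries had 1 count and the title WT libraries 182, a WT over KO ratio of 203 with a 95% exact binomial counting interval of 35.95 to 8055. In the later codes title KO was at least 13.4-fold higher, taking 3 counts over the WT pair as the floor for a count of 0. Intervals and floors cover counting error only.

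The T lineage sum moved with Syt13 in the earlier codes, and its part in that difference was not tested. In the later codes the T lineage sum was 65.8 and 88.9 CPM in title KO and 72.2 and 88.0 CPM in title WT libraries, so the groups overlapped there while Syt13 had 32 against 0 counts.

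Rnf125 (ENSMUSG00000033107.5, chromosome 18, 20944625 to 20983862, plus strand) encodes a RING ubiquitin ligase that, in human cells, marks the viral RNA sensor RIG-I for degradation. It was at 15.01 and 14.2 CPM in the earlier title KO libraries RMN032 and RMN033, against 4.73 and 6.63 CPM in title WT RMN030 and RMN031. It was at 5.54 and 4.52 CPM in the later title KO libraries RMN038 and RMN039, against 15.5 and 16.5 CPM in title WT RMN036 and RMN037. The gene sat at 2 levels, near 15 CPM in all disputed and near 5 CPM in all undisputed libraries. The KO over WT ratio of title means was 2.57 in the earlier and 0.314 in the later codes. The counts behind these values ran from 50 to 276.

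Eva1a (ENSMUSG00000035104.13, chromosome 6, 82041043 to 82093099, plus strand) encodes a membrane protein of the endoplasmic reticulum and lysosome that promotes autophagy. It was at 26.9 and 25.7 CPM in title KO RMN032 and RMN033, against 7.18 and 9.75 CPM in title WT RMN030 and RMN031. In the later codes it was at 14.4 and 20.1 CPM in title KO RMN038 and RMN039, against 28.3 and 24.2 CPM in title WT RMN036 and RMN037. The disputed pairs were alike, and the later KO pair lay between them and the earlier WT pair. The KO over WT ratio was 3.11 in the earlier and 0.657 in the later codes. The annotation has 1 other gene over this locus, Gm15864 on the minus strand, and the strand setting of the counting was not given, so reads of both cannot be told apart.

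Vim (ENSMUSG00000026728.8, chromosome 2, 13573927 to 13582826, plus strand) encodes vimentin, the intermediate filament of leukocytes and mesenchymal cells, where keratinocytes build filaments of keratin. It was at 3104 and 3271 CPM in title KO RMN032 and RMN033, against 4525 and 4054 CPM in title WT RMN030 and RMN031. It was at 4737 and 4302 CPM in title KO RMN038 and RMN039, against 3490 and 3812 CPM in title WT RMN036 and RMN037. Vim ran like Syt13, higher in the undisputed libraries, but the ranges lay close. The KO over WT ratio was 0.743 in the earlier and 1.24 in the later codes.

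Fam53c (ENSMUSG00000034300.15, chromosome 18, 34758906 to 34773760, plus strand) encodes a nuclear protein reported in mammalian cells to bind the kinase DYRK1A. It was at 126 and 132 CPM in title KO RMN032 and RMN033, against 97.0 and 100.4 CPM in title WT RMN030 and RMN031. It was at 71.1 and 74.4 CPM in title KO RMN038 and RMN039, against 114 and 121 CPM in title WT RMN036 and RMN037. All 4 pairs were apart from each other, with the later title KO pair lowest. The KO over WT ratio was 1.31 in the earlier and 0.619 in the later codes.

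Fcgbp (ENSMUSG00000047730.16, chromosome 7, 28071236 to 28120862, plus strand) encodes a large secreted protein of mucus, known in humans to bind the Fc part of IgG. It was at 2365 and 2489 CPM in title KO RMN032 and RMN033, against 1969 and 1898 CPM in title WT RMN030 and RMN031. It was at 1364 and 1610 CPM in title KO RMN038 and RMN039, against 2170 and 2255 CPM in title WT RMN036 and RMN037. Its pairs stood in the order of those of Fam53c. The KO over WT ratio was 1.25 in the earlier and 0.672 in the later codes. The log2 levels of Fcgbp and Fam53c had a Pearson r of 0.98 over the 8 libraries, a description of libraries that share their depth.

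In all 6 genes the undisputed and the disputed libraries did not overlap, as was so of 3.34% of tested genes, and the title genotypes were separated in opposite directions in the runs, as in 7.39% of tested genes. Their choice also fixes that none of the 6 was separated by title genotype or by description genotype over all 8 libraries, where 2.88% and 8.27% of tested genes were. Syt13 and Vim were the higher in undisputed libraries, and Rnf125, Eva1a, Fam53c and Fcgbp the lower. The size of the split differed widely. The mean over undisputed libraries was 4405 ± 294 CPM for Vim, against 3419 ± 306 CPM over disputed ones (SD, n = 4 each). For Rnf125 these means were 5.36 ± 0.95 and 15.3 ± 0.99 CPM, and for Eva1a 12.9 ± 5.7 and 26.3 ± 1.7 CPM. For Fam53c they were 85.7 ± 15.1 and 123 ± 7.7 CPM, and for Fcgbp 1710 ± 278 and 2319 ± 138 CPM. For Syt13, near 0 in the disputed libraries, they were 3.56 ± 2.64 and 0.015 ± 0.031 CPM. The spread within the undisputed group exceeded that within the disputed group for Syt13, Eva1a, Fam53c and Fcgbp, whose undisputed pairs lay apart.

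**Figure D2:**
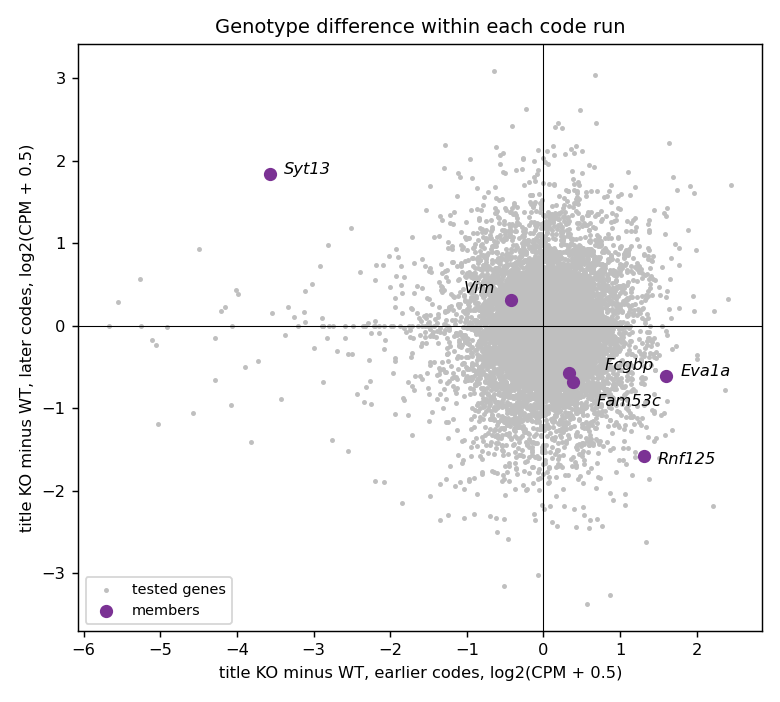
Title KO minus WT difference of mean log2(CPM + 0.5) in the later codes (vertical) against that in the earlier codes (horizontal), with 16146 tested genes in grey and the 6 genes in purple. Syt13 and Vim lie at the upper left (lower in KO in the earlier codes, higher in the later) and the 4 others at the lower right.

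In the edgeR fit with 1 mean per code pair, the interaction on the log2 scale was -2.95 (SE 0.41) for Rnf125, -2.17 (SE 0.36) for Eva1a and 0.81 (SE 0.14) for Vim. It was -1.01 (SE 0.17) for Fam53c and -0.83 (SE 0.14) for Fcgbp. No fitted value is given for Syt13, which had 0 counts in 3 libraries. By interaction p-value the 6 genes held ranks 3, 6, 8, 9, 10 and 11. The genes among them in that order that are not in the list were the T cell receptor genes Trbc1 and Trbc2 (ranks 1 and 2), Nr4a2, Rac2 and C230085N15Rik (ranks 4, 5 and 7). The last gene inside was Fcgbp with an interaction of -0.83, and the first outside was Arhgap6, at 2.98 and 4.71 CPM in RMN038 and RMN039 and at 0 counts in RMN036 and RMN037. At an adjusted p of 0.05, 0.0186% of tested genes were called for the interaction. Since the interaction chose the genes, nothing is read from their place in it.

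Per kilobase of exon, the 6 genes covered most of the range of expression. Vim had a mean level of 825 RPKM, the CPM per kilobase, and was number 43 of 16084 genes ranked, and Fcgbp had 192 RPKM and was number 248. Fam53c had a mean of 23.2 RPKM, Eva1a of 6.98, Rnf125 of 6.16 and Syt13 of 0.475 RPKM, where Syt13 was number 13368. The RPKM ranges over the libraries of Vim (654 to 999), Fcgbp (130 to 237), Fam53c (15.7 to 29.3) and Syt13 (0 to 1.66) did not touch, and those of Eva1a (2.56 to 10.1) and Rnf125 (2.70 to 9.86) overlapped almost wholly.

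The contrasts that the choice of genes did not use are the average KO minus WT difference of the title codes over both runs, the KO minus WT difference of the description codes, and KO minus WT in the undisputed libraries. In a balanced fit each is orthogonal to the interaction, and the last is the sum of the other two. They use the same estimate of spread as the interaction, so a gene picked partly for a small spread has a small p-value here too. None of the 6 genes passed an adjusted p of 0.05 (edgeR quasi-likelihood test with Benjamini-Hochberg adjustment over all 16146 genes) in any of the 3. The shares of all tested genes called were 0.0372% by title, 2.51% by description and 0.650% in the undisputed libraries.

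Averaged over the runs, the title KO minus WT difference was largest for Eva1a among the 5 fitted genes. The log2 fold change was 0.50 (SE 0.18, edgeR adjusted p = 0.542) for Eva1a, -0.16 (SE 0.20) for Rnf125, -0.07 (SE 0.07) for Vim, -0.16 (SE 0.09) for Fam53c and -0.13 (SE 0.07) for Fcgbp. Syt13, with no fitted value here, averaged 0.661 ± 0.740 CPM in title KO and 2.91 ± 3.38 CPM in title WT libraries (SD, n = 4 each). Eva1a alone had an unadjusted p under 0.05, as did 7.55% of all genes tested. Of 28 T lineage markers tested, 3 were called lower by title and 0 higher, against 0.0372% of all genes called in either direction. The part of T lineage transcripts in the values of the members was not tested. Single libraries moved the smaller values: Rnf125 was -0.26 without RMN030 and -0.043 without RMN031, Vim -0.015 without RMN030 and -0.12 without RMN031, and Fcgbp -0.069 without RMN038 and -0.20 without RMN039. Without both RMN030 and RMN031 the contrast is that of the later codes alone and holds part of the interaction. Eva1a and Vim then took the opposite sign (log2 fold changes of -0.58 and 0.34), and Rnf125 was -1.64, Fam53c -0.67 and Fcgbp -0.55.

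By description, KO libraries had the higher Eva1a, with a log2 fold change of 0.55 (SE 0.18, edgeR adjusted p = 0.172). Vim had 0.17 (SE 0.07, edgeR adjusted p = 0.274), Fam53c -0.25 (SE 0.09, edgeR adjusted p = 0.188) and Fcgbp -0.22 (SE 0.07, edgeR adjusted p = 0.156). Rnf125 had 0.02 (SE 0.21), with either sign when single libraries were left out. The first 4 of these had an unadjusted p under 0.05, as did 14.0% of all genes. With no filter on low counts Fcgbp passed (edgeR adjusted p = 0.0450). Without both RMN030 and RMN031, Vim passed (log2 fold change 0.41, edgeR adjusted p = 0.0158) and Eva1a turned to -0.25 and Rnf125 to -0.64, in a contrast that then holds part of the interaction. Other transcripts set the runs apart in the same contrast: 9 of 11 blood and mast cell markers and 12 of 13 mitochondrially encoded genes were called higher by description, and none of either list lower. Of 15 fibroblast, endothelial and melanocyte markers tested, 5 were called higher by description and 0 lower. Of 28 T lineage markers tested, 4 were called lower by description and 0 higher. Over all tested genes, 2.51% were called in this contrast, in either direction. The part of each list in the values of the members was not tested.

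In the undisputed libraries Eva1a was higher in KO by a log2 fold change of 1.05 (SE 0.26, edgeR adjusted p = 0.117), with 14.4 and 20.1 CPM in KO against 7.18 and 9.75 CPM in WT. It passed with DESeq2 (adjusted p = 0.0210) and in edgeR with no filter (adjusted p = 0.0215). Syt13 had 32 counts in KO and 182 in WT, a log2 fold change of -2.14 (SE 0.76, edgeR adjusted p = 0.282). Fam53c had -0.41 (SE 0.12, edgeR adjusted p = 0.192) and Fcgbp -0.35 (SE 0.10, edgeR adjusted p = 0.167), and Fcgbp passed with no filter (edgeR adjusted p = 0.0257). In these 4 genes the KO and WT pairs did not overlap, as in 41.0% of all genes tested, and their unadjusted p was under 0.05, as it was for 12.5% of all genes. Rnf125 had -0.15 (SE 0.30) and Vim 0.10 (SE 0.10), and both changed sign without RMN031 (0.09 and -0.0018). In this comparison genotype coincides with the code run, and the T lineage sum of 65.8 and 88.9 CPM in KO against 502 and 504 CPM in WT moves with it. Blood and mast cell markers, summing to 1401 and 1333 CPM in KO and 182 and 166 CPM in WT, move with it too, with 6 of 11 called higher, as do the mitochondrially encoded genes, with 7 of 13 called higher. Fibroblast, endothelial and melanocyte markers summed to 249 and 169 CPM in KO and 119 and 98.5 CPM in WT, with 2 of 15 called higher and 0 lower. Over all tested genes, 0.650% were called in this contrast, in either direction. The part of each list in the values of the members was not tested here either.

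**Figure D3:**
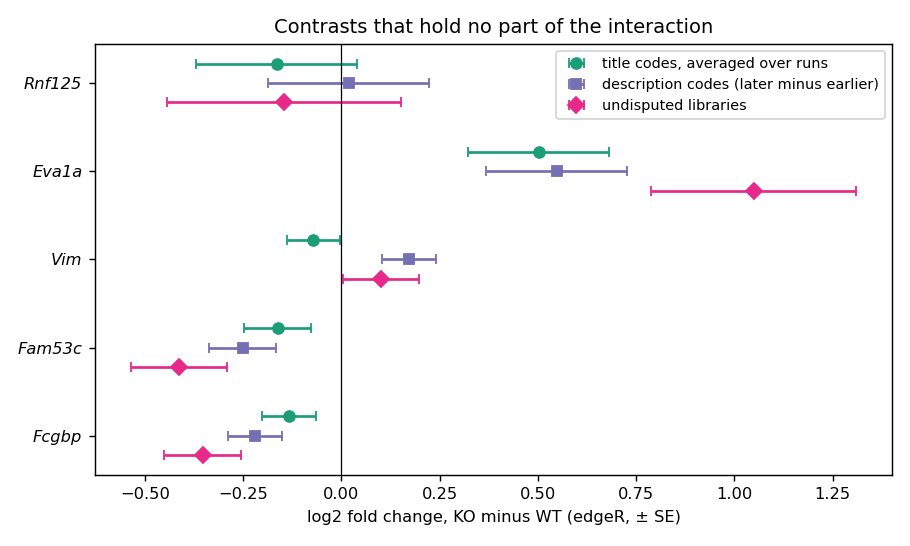
KO minus WT log2 fold changes with standard errors from edgeR for 5 genes, in the 3 contrasts that hold no part of the interaction. Syt13 is left out because libraries with 0 counts give no bounded fold change. Eva1a lies right of 0 and Fam53c and Fcgbp left of 0 in all 3, and no value passed the threshold.

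Over all 8 libraries, each genotype by either set of labels holds 1 undisputed and 1 disputed pair. The choice of genes therefore fixes that the KO and WT ranges overlap, and the levels are given without a test. By title, Vim averaged 3854 ± 793 CPM in KO and 3970 ± 436 CPM in WT libraries, and Eva1a averaged 21.8 ± 5.7 CPM in KO and 17.4 ± 10.5 CPM in WT libraries (SD, n = 4 each). By description, Fcgbp averaged 1849 ± 432 CPM in KO and 2180 ± 291 CPM in WT libraries, and Fam53c averaged 95.2 ± 26.1 CPM in KO and 114 ± 17.9 CPM in WT libraries (SD, n = 4 each). The wide SDs hold the distance between the pairs.

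The summed level of markers of keratinocytes, the epithelial cells from which Langerhans cells are separated, differed along the same split of libraries, while most single markers overlapped. The 19 markers in the table, none of them at 0, summed to 17980 to 20360 CPM in the undisputed and 20600 to 23059 CPM in the disputed libraries, with no overlap. This is the direction of Rnf125, Eva1a, Fam53c and Fcgbp. Of 18 keratinocyte markers tested, 0 were called for the interaction, 7 had a negative one at an unadjusted p under 0.05 and 0 a positive one, where 7.93% of all genes had such a p in either direction. The median interaction of the list was -0.34, against 0.00 over all genes, in log2. Lower in every undisputed than in every disputed library were 2 of the 19, the desmosome gene Dsp and the 14-3-3 sigma gene Sfn. Such a lack of overlap, in either direction, was found in 3.34% of all tested genes. Dsp was at 632 and 562 CPM in title KO RMN032 and RMN033, against 466 and 478 CPM in title WT RMN030 and RMN031. Dsp was, of the later libraries, at 511 and 443 CPM in title KO and 514 and 538 CPM in title WT libraries. The differentiation keratin Krt10 went the other way in the earlier codes, with 226 and 182 CPM in title KO RMN032 and RMN033, against 257 and 277 CPM in title WT RMN030 and RMN031. Krt1, its partner, likewise had 48.3 and 33.6 CPM in RMN032 and RMN033, against 57.8 and 59.5 CPM in RMN030 and RMN031. The basal keratin Krt14 made up the largest values, between 6463 and 8876 CPM, and its ranges overlapped. The part of keratinocyte transcripts in the levels of the 4 genes was not tested.

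The sums of the other marker lists for cell types overlapped between undisputed and disputed libraries. T lineage markers, high in RMN030 and RMN031 alone, summed to 65.8 to 504 CPM in undisputed and 72.2 to 92.8 CPM in disputed libraries. Of 28 tested, 14 had a positive and 0 a negative interaction at an unadjusted p under 0.05, against 7.93% of all genes in either direction. At an adjusted p of 0.05, 2 of the 28 were called, against 0.0186% of all genes. Monocyte, macrophage and dermal dendritic cell markers summed to 687 to 833 CPM in undisputed and 615 to 705 CPM in disputed libraries, and 5 of 18 tested had a positive interaction at an unadjusted p under 0.05, against 7.93% of all genes in either direction. Of the 20 in this list, 1, Xcr1, was lower in every undisputed library. Fibroblast, endothelial and melanocyte markers, cells that hold vimentin, summed to 98.5 to 249 CPM in undisputed and 77.0 to 210 CPM in disputed libraries. Of 15 tested, 3 had a positive and 1 a negative interaction at an unadjusted p under 0.05, against 7.93% of all genes in either direction. Of the 18 in the list, 1, Pdgfrb, was higher in every undisputed library. Of all tested genes, 3.34% had no overlap, in either direction. Langerhans cell identity genes summed to 100757 to 120770 CPM in undisputed and 94157 to 104970 CPM in disputed libraries. Of 24 tested, 6 had a positive and 1 a negative interaction at an unadjusted p under 0.05, against 7.93% of all genes in either direction. Of the 25 genes in this list, 1, Cd207, was higher in every undisputed library (10768 to 11963 CPM) than in every disputed one (9706 to 10701 CPM). Such a lack of overlap, in either direction, was found in 3.34% of all tested genes. Cd207 went in the direction of Syt13 and Vim, and its part in their levels was not tested. Id2, a factor that Langerhans cells need to develop, was at 109 and 115 CPM in title KO RMN032 and RMN033 and 109 and 142 CPM in title WT RMN030 and RMN031, which overlap. Of the later libraries, Id2 was at 166 and 152 CPM in title KO and 101 and 101 CPM in title WT. Outside the cell type lists, the 12 PRC2 genes did not overlap in sum, with 490 to 549 CPM in undisputed and 553 to 564 CPM in disputed libraries, yet 0 of 12 had an unadjusted p under 0.05 for the interaction.

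**Figure D4:**
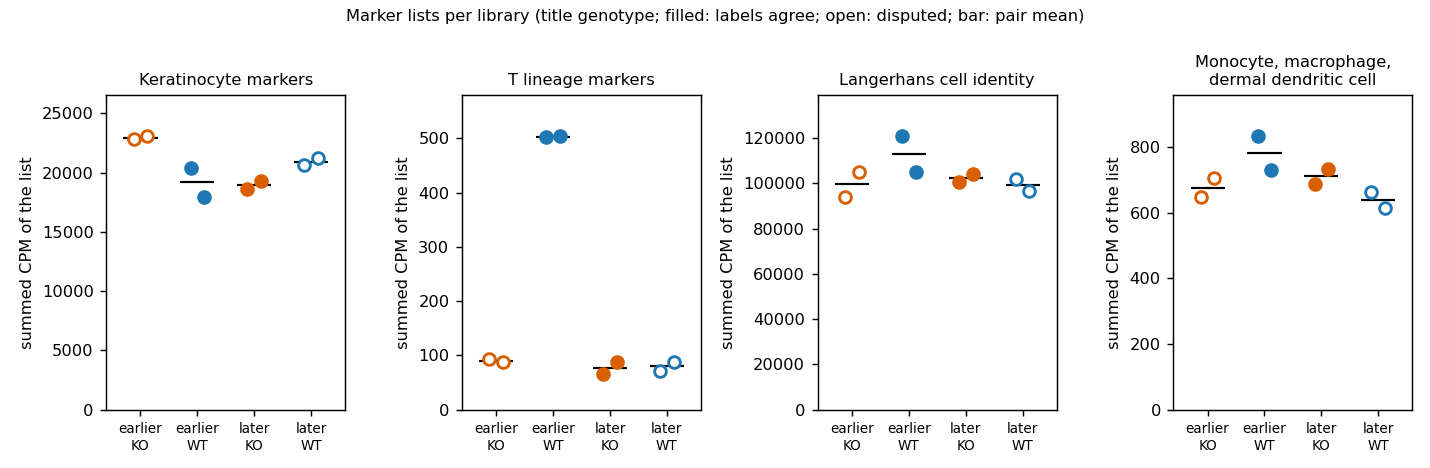
Summed CPM of 4 marker lists per library, by title genotype and code run, with filled points for undisputed and open points for disputed libraries and bars for means of 2 libraries. Keratinocyte sums are lower in undisputed libraries (17980 to 20360) than in disputed ones (20600 to 23059), and T lineage sums are high in RMN030 and RMN031 (502 and 504).

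Lists of relatives and partners of the 6 genes held few genes with the same pattern. Of 23 synaptotagmin and vesicle release genes tested, Syt13 was chosen for its interaction. Of the 22 others 0 were called and 1, Sytl5, had an unadjusted p under 0.05 (a negative interaction), against 7.93% of all genes in either direction. Sytl5 was at no more than 1.82 CPM in any library, with 0 counts in RMN030, RMN031, RMN037, RMN038 and RMN039. By description the syntaxin gene Stx3 was higher in KO (log2 fold change 0.60, edgeR adjusted p = 0.0255). No gene of the RIG-I list was called in any contrast. Of the 26 tested beside Rnf125, 1 had an unadjusted p under 0.05 for the interaction, against 7.93% of all genes in either direction. It was a negative one, that of Rnf135, another ligase of the RIG-I pathway. Rnf135 was at 5.64 and 8.38 CPM in title KO RMN032 and RMN033 and 3.36 and 3.12 CPM in title WT RMN030 and RMN031. Rnf135 was, of the later libraries, at 7.17 and 6.52 CPM in title KO and 10.6 and 6.95 CPM in title WT libraries.

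Of the 39 autophagy and lysosome genes tested beside Eva1a, 0 were called for the interaction, and 5 had a positive and 2 a negative one at an unadjusted p under 0.05, against 7.93% of all genes in either direction. Among the 39, the kinase gene Ulk2, which starts autophagy, and the lipid kinase gene Pik3c3 were lower in every undisputed than in every disputed library. Eva1a, chosen for its interaction, was too. Such a lack of overlap, in either direction, was found in 3.34% of all tested genes. Ulk2 was at 8.55 to 12.6 CPM in the undisputed libraries and 12.9 to 18.7 CPM in the disputed ones. Sqstm1, the autophagy receptor p62, went the other way, with 2764 and 2858 CPM in title KO RMN038 and RMN039, against 2263 and 2299 CPM in title WT RMN036 and RMN037. By description the lysosomal membrane gene Lamp1 was higher in KO (log2 fold change 1.62, edgeR adjusted p = 0.00111), the only call of this list in the 3 tested contrasts.

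Of the 15 intermediate filament genes and partners tested beside Vim, 2 had a positive interaction at an unadjusted p under 0.05 and 0 a negative one, against 7.93% of all genes in either direction. They were the nuclear lamin gene Lmna and the annexin partner gene S100a10. Lmna was at 3046 and 3505 CPM in title KO RMN032 and RMN033, against 4476 and 3926 CPM in title WT RMN030 and RMN031, and at 3852 and 4011 CPM in title KO against 3513 and 3908 CPM in title WT libraries of the later codes. By description the linker gene Csrp1 was higher (log2 fold change 0.63, edgeR adjusted p = 0.00337) and the plakin gene Dst lower in KO (log2 fold change -0.37, edgeR adjusted p = 0.0175). Of the 15 Fam53 and Dyrk family genes and partners tested beside Fam53c, 2 had a positive and 0 a negative interaction at an unadjusted p under 0.05. The share of all genes was 7.93% in either direction. The 14-3-3 gene Ywhah was higher in KO by description (log2 fold change 0.75, edgeR adjusted p = 0.00118). Of the 8 mucin and mucus genes tested beside Fcgbp, 1, Muc2, had an unadjusted p under 0.05 for the interaction (a positive one). This compares with 7.93% of all genes in either direction. Muc2 was at no more than 2.26 CPM in any library, with 0 counts in RMN032, RMN036, RMN037 and RMN038. None of the list passed in any tested contrast.

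Of the nearest tested genes on either side of the 6 loci, 12 in all, 1 shared the pattern of its neighbour. It alone of the 12 had an unadjusted p under 0.05 for the interaction. That count is near the share of all genes, 7.93% in either direction, so nothing is read from it. The gene was 9530053A07Rik, 8604 bases beyond Fcgbp on the same strand and named after its values were seen. It was at 98.3 and 105 CPM in title KO RMN032 and RMN033, against 76.6 and 76.6 CPM in title WT RMN030 and RMN031. Of the later libraries, it was at 55.6 and 63.4 CPM in title KO and 91.4 and 89.8 CPM in title WT libraries. Its interaction was -0.94 (SE 0.19) in log2, at rank 41 of 16146. Whether it and Fcgbp share reads was not tested. The 11 other neighbours held ranks from 2044 to 13897, with none at an unadjusted p under 0.05. They included Rnf138, a ubiquitin ligase gene 17479 bases from Rnf125, with an interaction of -0.28 (SE 0.35).

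Among 9341 named genes with a mean of at least 5 CPM, the closest to each member over the 8 libraries by Pearson r of log2(CPM + 0.5) were counted as a description. They were Hpcal1 (r = 0.97) and Xrcc1 (0.95) for Syt13, Tmem115 (0.96) and Clca3a1 (0.95) for Rnf125, and Efnb2 (0.98) and Tmem45a (0.97) for Eva1a. Wsb2 (0.96) and Prdm1 (0.96) were closest to Vim. Pigt was closest to Fcgbp (0.99) and, after Fcgbp itself, to Fam53c (0.97). Efnb2, the gene of the membrane ligand ephrin B2, was at 7.78 and 9.28 CPM in title KO RMN032 and RMN033 and 2.37 and 3.29 CPM in title WT RMN030 and RMN031. Of the later libraries, it was at 5.75 and 5.79 CPM in title KO and 9.48 and 7.79 CPM in title WT libraries. Prdm1, the gene of the transcription factor Blimp-1, was at 191 to 220 CPM in undisputed and 156 to 185 CPM in disputed libraries.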

How the data were processed

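The authors deposited 1 table of raw, unnormalized counts per Ensembl gene for 8 libraries, made with STAR 2.5.2b and featureCounts 1.5.0 on GRCm38 (mm10), per the submitters' processing notes. Sources used here do not state the annotation release, the strand setting or how mates were counted. Of counts from 1 to 20, 60.1% were even, so mates may have been counted singly, and counting intervals are then too narrow. Symbols were matched by Ensembl identifier for 25080 of 25247 genes, and coordinates and exon lengths came from GENCODE M21 (GRCm38). CPM was scaled to the column total.

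Differential expression used edgeR 4.0.16 in R 4.3.3 (filterByExpr, TMM, robust quasi-likelihood fit, 1 mean per code pair, threshold 0.05). Standard errors were derived from F. The step was tested on simulated data. The members and gene lists were chosen with earlier results of these data known. Other genes were named by interaction p (10 genes, up to 3 per list) or by likeness (2 per member). Others were named as list members called or for a lack of overlap. Dsp, Ulk2, Pik3c3, Pdgfrb, Xcr1 and 9530053A07Rik were picked with their values in view. The alternatives tried were RLE factors, no filter, 1 CPM in 2 libraries, DESeq2 1.42.0, limma 3.58.1 quality-weighted voom, omission of single libraries, a replicate block, fits of 2 groups, and, added after the data were seen, a fit without both RMN030 and RMN031. Every pair of libraries differed by more than sampling noise (chi-square per gene 11.7 or more). A lone library was assumed to vary like the other pairs.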

Additional observations from a re-analysis of the deposited data

Results flagged for a closer look

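In all 6 genes the title KO and WT libraries were separated in one direction in the earlier codes and in the other in the later codes, which is the property they were picked for. The difference was not tested. On the log2(CPM + 0.5) scale, the later minus the earlier KO minus WT difference was 5.41 for Syt13, -2.89 for Rnf125, -2.20 for Eva1a, 0.73 for Vim, -1.08 for Fam53c and -0.91 for Fcgbp. The value for Syt13 depends on the added 0.5, since 3 libraries had 0 counts. Among 24 groups of 4 libraries (6 genes, 2 sets of labels, KO and WT), none had a lowest or highest library set far off the rest. About 1 in 20 such groups would by chance, here 1.2. Groups made of 2 unlike pairs have a wide range, which makes a far library harder to find.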

How the results depend on the processing

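The number of genes called depended on the tool and filter. It was 3 for the interaction, 6 by title, 405 by description and 105 in the undisputed libraries. With no filter these were 178, 176, 993 and 577, and with DESeq2 97, 105, 807 and 437. The 1 CPM filter gave 7 for the interaction, and limma voom gave 3 by title. Leaving out 1 library gave 0 to 8 for the interaction (0 without RMN030, RMN031, RMN038 or RMN039, 1 without RMN033, 8 without RMN032). By title it gave 0 to 12 (0 without RMN030, RMN031, RMN033, RMN038 or RMN039, 10 without RMN036, 12 without RMN037). By description it gave 172 to 353 (262, 219, 172, 249 and 218 without RMN030, RMN032, RMN033, RMN036 and RMN038), and in the undisputed libraries 30 to 121 (41, 30 and 52 without RMN030, RMN038 and RMN039). In edgeR, 2 groups of 4 by title gave 0 calls (672 genes at an unadjusted p under 0.05). Without both RMN030 and RMN031 there were 0 by title (1297 at an unadjusted p under 0.05) and 260 by description. The cause was not tested.

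With the replicate number as a block edgeR called 0 genes for the interaction (909 at an unadjusted p under 0.05) and 0 by title (854). Deviations of same-numbered libraries from their pair means had correlations of -0.11 and 0.02, so the numbers were taken as names only.

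Of the members, Rnf125 by description ranged from -0.079 to 0.13 when single libraries were left out (-0.079, -0.0050 and -0.058 without RMN030, RMN037 and RMN038) and was -0.64 without both RMN030 and RMN031. Without both, Eva1a was -0.25 by description and -0.58 by title, and Vim 0.34 by title. In the undisputed libraries, Rnf125 ranged from -0.34 to 0.091 and Vim from -0.0018 to 0.21, each with its changed sign without RMN031. The interaction kept its sign for the 5 fitted members under every alternative run. Their choice by this interaction in the same libraries all but fixes that, so nothing is read from it. Low counts limit Syt13, for which no alternative fold is given outside the undisputed libraries.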

Other observations

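Other genes high in the interaction ranking showed different uses of the 4 code pairs, given as values. Nr4a2, an immediate early nuclear receptor gene, was at 499.8 and 508 CPM in title KO RMN032 and RMN033 and at 227 and 254 CPM in title WT RMN030 and RMN031, while the later codes held 311 and 319 CPM in title KO and 322 and 313 CPM in title WT libraries. The early response genes Adamts1 and Errfi1 were likewise highest in RMN032 and RMN033 (609 and 579.9 CPM, and 780 and 705 CPM). The phosphatase gene Dusp2 and the sorting nexin gene Snx20 were lowest there, at 41.5 and 24.7 CPM and at 18.4 and 15.3 CPM, with at least 116 and 62.8 CPM in every other library. Rassf4 was at 162 and 185 CPM in RMN036 and RMN037 and at 214 to 266 CPM in the others. The leukocyte GTPase gene Rac2, the costimulatory receptor gene Cd27 and the GTPase gene Gimap6 were highest in RMN030 and RMN031, the libraries high in T lineage transcripts, with Rac2 at 16.6 and 14.4 CPM there and at no more than 2.997 CPM elsewhere.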
